A study of Arabidopsis thaliana x Arabidopsis arenosa and Arabidopsis suecica with 6 samples.

Results

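TATT and TTTA are F1 plants of the same make-up in chromosome sets, raised from the same parental kinds named in opposite order. In TATT the allotetraploid AlloF8 was named first and Arabidopsis thaliana second, and in TTTA A. thaliana was named first and AlloF8 second. AlloF8 is a resynthesized allotetraploid in generation F8, made from A. thaliana (T) and Arabidopsis arenosa (A). Each F1 cross therefore holds 3 T genomes and 1 A genome. Rosette leaves were taken before bolting at 6 to 7 weeks from plants grown with 16 h of light at 22 °C and 8 h of dark at 20 °C. Which parent served as the mother is not given in the labels, nor is the accession or ploidy of the A. thaliana parent. Each cross has 3 sequenced libraries, replicates 1 to 3, out of 12 libraries of F1 plants in the series. Whether the replicates come from separate plants is not stated, so p-values measure only the spread between libraries, which may be technical. In the limma fits with all libraries that spread was taken over all 12. All genes listed for these crosses were described, 16149 with a value in TATT or TTTA out of 17415 in the tables of the F1 crosses and AlloF8, and 12827 of them had a value in all 6 libraries.

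An allotetraploid carries the chromosome sets of different species, and the copies of a gene that came from each species are called homoeologs. Reciprocal crosses bring the same genomes together with the roles of the parents exchanged. Differences between them are the usual test for effects of parental origin, which include genomic imprinting, maternally inherited organelles and factors loaded into the egg or seed. In resynthesized Arabidopsis allotetraploids, clock genes such as CCA1 and TOC1 and the flowering repressor FLC are known for expression that depends on the hybrid state.

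Messenger RNA was reported by the authors as RPKM, reads per kilobase of transcript scaled to the mapped reads of a library, separately for the T and the A homoeolog. Summed RPKM ran from 736297 to 780595 over the TATT libraries and from 764221 to 781415 over the TTTA libraries, and the number of reads behind them is unknown, so no counting interval was computed. Between 6.97% and 12.3% of the transcripts were listed at 0 for both homoeologs in the TATT libraries, and between 5.22% and 8.74% in the TTTA libraries. These were treated as missing, because no total between 0 and 2 RPKM occurs. Replicate 2 stood apart in both crosses. Within TATT, 19.8% of 12192 genes differed over 2-fold between replicates 1 and 2 and 16.8% between replicates 2 and 3, but 0.689% between replicates 1 and 3. Within TTTA the shares were 9.68%, 7.87% and 1.67%. Between same-numbered libraries, the deviations of log2 totals from the cross mean correlated across genes at 0.64, 0.69 and 0.392 for replicates 1, 2 and 3, with genes that are not independent of each other. Between different numbers the correlations ran from -0.639 to 0.476, and TATT replicate 3 correlated more with TTTA replicate 1 (0.476) than with TTTA replicate 3. Deviations within a cross sum to 0, so a replicate 2 apart in both crosses pushes replicates 1 and 3 the same way. The positive values for replicates 1 and 3 therefore do not by themselves show that those numbers pair. TATT and TTTA were compared within replicate numbers, and the fit without them is given at the end. TTTA replicate 3 also stood apart in the balance of the homoeologs on chromosome 2, which is described with the chromosomes.

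The leaf label was checked against markers. The 6 mesophyll markers, among them RBCS1A and CAB1, had values in all 6 libraries and summed to 42164, 15425 and 34430 RPKM in TATT, against 36869, 23338 and 39503 RPKM in TTTA. Of 8 flower markers only SEP2 was listed, at 3.26 RPKM in TATT replicate 3, and AP1, AP3, PI, AG and LFY had no value. Of 7 root markers, SHR, SCR and NRT2.1 were listed, with sums of 10.9 to 14.0 RPKM in TATT and 10.4 to 14.1 RPKM in TTTA. Of 6 senescence markers, 5 were listed and SAG12 had no value, and their sum was 16.9, 166 and 28.9 RPKM in TATT, against 19.5, 178 and 51.0 RPKM in TTTA. In both crosses replicate 2 was thus low in mesophyll markers and high in senescence markers. Fewer cells of a type and less RNA per cell cannot be told apart in these bulk samples.

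No gene passed the test for a difference in total expression (T + A) between TATT and TTTA. Of 14180 genes tested with limma on the log2 scale, 0 passed an adjusted p of 0.05 (0%, the lowest adjusted p being 0.894), and 515 (3.63%) had an unadjusted p under 0.05, 250 of them higher (1.76%) and 265 lower in TATT (1.87%). An unadjusted p under 0.01 was reached by 0.508% of the genes. The median difference over genes was -0.00 on the log2 scale (TATT minus TTTA), and 10% of genes lay below -0.27 and 10% above 0.27. For 12360 genes (87.2%) the 95% interval of the difference lay within 2-fold in either direction, and for 7526 (53.1%) within 1.5-fold. Estimates past 2-fold were found for 78 genes (0.55%), with 19 higher and 59 lower in TATT. At 12827 genes with 6 values, all 3 TATT libraries were above all 3 TTTA libraries for 271 genes (2.11%) and below them for 387 (3.02%).

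The genes with the smallest p among those that differed in the same direction in all 3 replicate pairs are described here, and none of them passed the adjusted threshold. MAPKKK6, a mitogen-activated protein kinase kinase kinase, had 12.5, 9.54 and 14.8 RPKM in TATT, against 6.93, 2.59 and 7.24 RPKM in TTTA. The TATT libraries were all above the TTTA libraries, and the difference was 1.16 ± 0.19 on the log2 scale (SE; 95% interval 0.74 to 1.58; limma adjusted p = 0.894). NLP1, a nitrilase-like protein, had 38.6, 49 and 42.3 RPKM in TATT, against 20.9, 26.3 and 24.1 RPKM in TTTA, without overlap and with little spread inside either cross. Its difference was 0.85 ± 0.18 (95% interval 0.45 to 1.26). Both homoeologs of NLP1 shared it, with T at 20.7, 21.9 and 22.7 RPKM in TATT, against 11.7, 13 and 12 RPKM in TTTA, and A at 17.9, 27.2 and 19.6 RPKM in TATT, against 9.18, 13.3 and 12.1 RPKM in TTTA. The F-box gene FBS4 had 6.65, 6.22 and 7.68 RPKM in TATT, against 3.99, 3.79 and 4.43 RPKM in TTTA, and the receptor kinase IOS1, which acts in immune signalling, had 19, 39.1 and 16.6 RPKM in TATT, against 12.2, 14.1 and 11.8 RPKM in TTTA. The methyltransferase gene AT1G69523 had 5.94, 4.29 and 6.07 RPKM in TATT, against 3.71, 2.87 and 3.94 RPKM in TTTA. In each of these 3 genes the groups did not overlap, with differences of 0.68 ± 0.16, 0.85 ± 0.21 and 0.56 ± 0.11. 

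On the lower side stood AT3G56080, another predicted methyltransferase, with 2.71, 2.02 and 2.9 RPKM in TATT, against 5.18, 5.58 and 4.44 RPKM in TTTA and a difference of -0.88 ± 0.17. AT1G17430, an alpha/beta-hydrolase, had 5.86, 9.64 and 6.92 RPKM in TATT, against 11.9, 13.7 and 9.78 RPKM in TTTA. AT2G41945, whose protein is uncharacterized, had 6.64, 6.6 and 7.11 RPKM in TATT, against 10.2, 8.1 and 11.7 RPKM in TTTA. The other 2 genes of this side encode ribosomal proteins. AT5G60670, of the L11 family, had 53.8, 57.5 and 55.4 RPKM in TATT, against 73, 84.1 and 75.8 RPKM in TTTA, and AT1G70600, of the L18e/L15 family, had 298, 278 and 236 RPKM in TATT, against 389, 367 and 329 RPKM in TTTA. Their differences of -0.48 ± 0.12 and -0.42 ± 0.12 are small against the 2-fold bound. The libraries of the crosses did not overlap and the replicates of a cross lay close together. Choosing genes by small p and the same direction in all 3 pairs favours both traits, so they add no support.

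**Figure D1:**
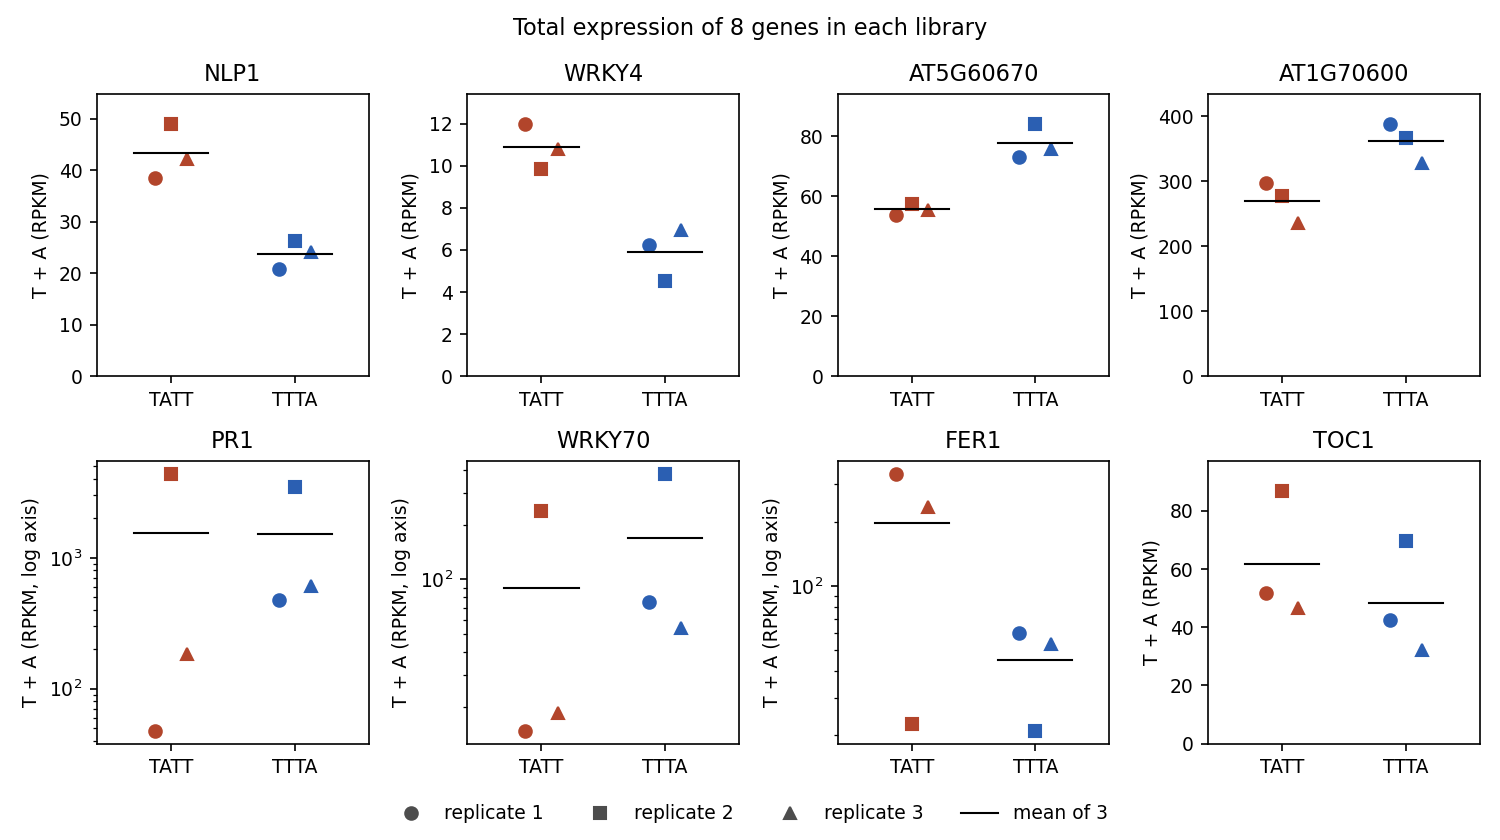
Total expression (T + A, in RPKM; log axis for PR1, WRKY70 and FER1) of 8 genes in each of the 3 TATT libraries (red, left) and the 3 TTTA libraries (blue, right); the symbol gives the replicate number and the line the mean of 3. NLP1, WRKY4, AT5G60670 and AT1G70600 do not overlap between the crosses, PR1, WRKY70 and FER1 follow replicate 2, and TOC1 is higher in TATT within each replicate number.

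Each homoeolog was also tested alone. No gene passed for the T homoeolog (0 of 14143, 0%; 321 at an unadjusted p under 0.05, 2.27%) or for the A homoeolog (0 of 11751, 0%; 569, 4.84%). The lowest adjusted p was 1.00 for T and 0.651 for A. Intervals lay within 2-fold for 86.9% of the T homoeologs and 82.7% of the A homoeologs. Among genes with 6 values, all 3 TATT libraries were above all 3 TTTA libraries for 1.99% of the T and 2.53% of the A homoeologs, and below them for 2.8% of the T and 3.47% of the A homoeologs. WRKY4, a transcription factor of resistance to necrotrophic fungi, had T at 8.13, 7.07 and 7.63 RPKM in TATT, against 4.46, 3.63 and 5.15 RPKM in TTTA, and its A homoeolog differed in the same direction, at 3.87, 2.76 and 3.17 RPKM in TATT, against 1.77, 0.886 and 1.82 RPKM in TTTA. ABCB21, an auxin transporter of the P-glycoprotein family, had T at 18.7, 21.6 and 18.4 RPKM in TATT, against 11.8, 8.13 and 14.3 RPKM in TTTA. The receptor-like kinase gene AT1G53440 had T at 21.2, 29.4 and 21 RPKM in TATT, against 16.4, 14.1 and 11.5 RPKM in TTTA. None of these T values overlapped between the crosses. ERF2, an ethylene-responsive transcription factor, had T at 19.4, 81.2 and 23.7 RPKM in TATT, against 37.4, 213 and 59.9 RPKM in TTTA, lower in TATT within every replicate number although the ranges overlap. RPT2, which acts in phototropism, had T at 6.99, 4.02 and 6.58 RPKM in TATT, against 10.1, 8.26 and 8.61 RPKM in TTTA, and the glycosyltransferase gene AT4G14100 had T at 7.83, 9.69 and 9.69 RPKM in TATT, against 12.1, 17.9 and 13.4 RPKM in TTTA, neither of them overlapping. On the A side, the lipase-family gene MVP1 had A at 5.22, 3.86 and 6.69 RPKM in TATT, against 3.09, 1.87 and 2.73 RPKM in TTTA, and AT3G07110, a ribosomal protein of the L13 family, had A at 18.24, 14.7 and 14.4 RPKM in TATT, against 27.4, 24.5 and 21.6 RPKM in TTTA, both without overlap. Most of the other leading A differences lay on chromosome 3 and are described with it.

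The share of the T homoeolog in T + A differed between the crosses by less than the spread of the libraries. Summed over all genes, each taken as its transcript of highest mean total, it was 74.4%, 70.5% and 71.2% in TATT (72.0% ± 2.09, SD, n = 3), against 74.1%, 71.3% and 71.7% in TTTA (72.4% ± 1.49, SD, n = 3). The difference of -0.331 points gave p = 0.7 in a two-sided exact permutation test, in which 3 libraries against 3 cannot go below 0.1. That test took the libraries as unpaired, so the spread between replicate numbers counts in it. Within replicate numbers, TATT was higher in replicate 1 and lower in replicates 2 and 3. Replicate 1 had the highest T share in each cross and stood apart from the other libraries, and the cross did not separate the libraries. Replicates 2 and 3 overlapped, with TTTA replicate 2 (71.3%) above TATT replicate 3 (71.2%). The median T share over genes was 74.9% in each cross (SD 0.144 in TATT and 0.231 in TTTA, n = 3 each), next to a genome share of 3 in 4. Of 11714 genes with both homoeologs at 1 RPKM or more on average, 10459 (89.3%) differed by less than 5 points between the cross means. Only 12 differed by over 20 points, 6 higher and 6 lower in TATT. In the limma fit of the T to A ratio, 0 of 11714 genes passed (0%; 347 at an unadjusted p under 0.05, 2.96%; lowest adjusted p 0.147). All 3 TATT libraries had a higher ratio than all 3 TTTA libraries for 4.04% of the genes with 6 values, and a lower one for 3.88%. Without TTTA replicate 3, 3 genes passed, all of them on chromosome 3.

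Genes that earlier work ties to hybrid or parental effects were read first among the gene groups. TOC1, the evening component of the circadian clock, had 51.6, 86.7 and 46.8 RPKM in TATT, against 42.6, 69.8 and 32.1 RPKM in TTTA. It was higher in TATT within each replicate number, though the ranges overlap, and its difference was 0.37 ± 0.14 (95% interval 0.05 to 0.70; limma adjusted p = 0.998). FLC had 12.3, 30.2 and 30.1 RPKM in TATT, against 18.6, 32 and 19.8 RPKM in TTTA, a difference of -0.02 ± 0.27 (95% interval -0.63 to 0.59), so no difference was detectable within these bounds. CCA1 and NRPD1 had no value in these libraries and are not analysed here. Of 17 circadian clock genes tested, 10 were higher and 7 lower in TATT, 0 passed the test, and the median difference was 0.15, with 9, 6 and 13 genes higher in replicate pairs 1, 2 and 3 and pair medians of -0.24 in pair 2 and 0.36 in pair 3. Examples with positive estimates, chosen after their values were seen, were 3 genes. LUX (PCL1 in the annotation), part of the evening complex of the clock, had 45.3, 43.4 and 33.2 RPKM in TATT, against 26.9, 39.3 and 15.6 RPKM in TTTA, its close relative BOA had 4.75, 24 and 4.91 RPKM in TATT, against 3.6, 17.2 and 2.57 RPKM in TTTA, and FKF1, a blue-light receptor of the flowering pathway, had 68.7, 58.8 and 71 RPKM in TATT, against 48.6, 54 and 55.2 RPKM in TTTA. CHE (TCP11), which represses CCA1, had 75.7, 47.4 and 60.6 RPKM in TATT, against 75.8, 112 and 79.1 RPKM in TTTA. The crosses overlap for TOC1, LUX and BOA, which are higher in TATT within each replicate number, and do not overlap for FKF1. None of these passed the test. Of 17 flowering-time genes 8 were higher and 9 lower, all 17 had intervals within 2-fold, and the floral integrator SOC1 (AGL20) had 25, 18.7 and 29 RPKM in TATT, against 33, 14.7 and 55.7 RPKM in TTTA. Of 22 genes of DNA methylation and small RNA pathways, 12 were higher and 10 lower with a median of 0.02, and all 22 intervals lay within 2-fold. AGO1, the main Argonaute of microRNA silencing, had 16.8, 22.3 and 18.6 RPKM in TATT, against 18.7, 23.3 and 14.3 RPKM in TTTA.

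Ribosomal protein genes leaned to lower levels in TATT as a list, without a passing member. Of 281 genes with that product name tested, 261 (92.9%) had a lower estimate in TATT and 20 a higher one, against 50.6% lower among all genes tested. The median difference was -0.25 on the log2 scale, a ratio of 0.84 on the linear scale, and 10% to 90% of the genes lay between -0.39 and -0.05. An unadjusted count of 78 (27.8%) had an unadjusted p under 0.05 in the lower direction, against 1.87% of all genes. That count rests on the fit: it was 27 without the replicate block, 32 of 280 with the 6 libraries alone and the block, 8 with the 6 libraries alone and no block, and 3 to 108 when replicates were left out, the 3 without replicate 3 of every cross. The median was negative in each replicate pair, at -0.24, -0.17 and -0.36, with 226, 223 and 252 genes lower. Of the 275 genes with 6 values, 79 (28.7%) had all 3 TATT libraries below all 3 TTTA libraries, against 3.02% of all genes, and 172 (62.5%) were lower in all 3 pairs, against 14.0%. Summed, the 275 genes took 5.61%, 4.84% and 4.62% of the RPKM of the TATT libraries, against 6.53%, 5.35% and 5.66% of the TTTA libraries. The whole here is the RPKM summed over genes, each taken as its transcript of highest mean total. SSR16, a plastid ribosomal protein, had 567, 312 and 431 RPKM in TATT, against 585, 493 and 631 RPKM in TTTA, and AT5G20290, of the S8e family, had 475, 442 and 377 RPKM in TATT, against 573, 524 and 548 RPKM in TTTA. The crosses did not overlap for AT5G20290, and overlapped for SSR16. The median of the list stayed between -0.30 and -0.19 when single replicates, or 1 replicate number of every cross, were left out. These genes are counted together as members of one product class, many are near-identical copies between which the authors' counting could split reads, and they are not independent of each other. 

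Histone genes also had mostly negative estimates. Of 34 tested, 33 were lower in TATT, with a median of -0.24 and pair medians of -0.12, -0.27 and -0.42, and 0 passed. AT5G10400, with 31.7, 36.6 and 33.2 RPKM in TATT, against 45.6, 42.4 and 62.8 RPKM in TTTA, and AT5G59690, with 64, 68.1 and 68.1 RPKM in TATT, against 86.5, 88.5 and 119.9 RPKM in TTTA, both had TATT libraries below all TTTA libraries. The 2 most abundant ones, AT4G40040 and AT5G10980, differed by -0.08 ± 0.13 and -0.01 ± 0.13. Proteasome subunits, another class of abundant housekeeping genes, had a median of -0.03 with 23 lower and 14 higher of 37. PAG1, an alpha subunit of its core, had 76.4, 91.3 and 77.1 RPKM in TATT, against 92.9, 94 and 94.3 RPKM in TTTA.

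Genes of photosynthesis changed direction between the replicate pairs. In the fit, 36 of 39 nuclear photosynthesis genes had negative estimates, with a median of -0.14. All 39 nuclear photosynthesis genes were higher in TATT in the replicate 1 pair (median 0.25), all 39 were lower in the replicate 2 pair (median -0.57), and 29 of 39 were lower in the replicate 3 pair (median -0.13). Their sum took 24.6%, 9.80% and 20.8% of the RPKM summed over genes, taken as for the ribosomal proteins, in TATT, against 21.3%, 14.0% and 22.4% in TTTA. These shares were in step with the mesophyll markers, but CAB1 and LHCB3 belong to both lists, so part of that agreement is built in. What cell content adds to these values was not tested. CAB1, a chlorophyll-binding protein of the light-harvesting antenna, had 25494, 9398 and 22355 RPKM in TATT, against 22725, 14381 and 26231 RPKM in TTTA. RBCS1A, a small subunit of Rubisco, had 10701, 4482 and 7568 RPKM in TATT, against 9179.9, 6335 and 8290.1 RPKM in TTTA. Chlorophyll synthesis genes had negative estimates for 19 of 19, with a median of -0.19 and pair medians of 0.01, -0.44 and -0.13. GUN4, which activates magnesium chelatase, had 96.1, 17.7 and 77.5 RPKM in TATT, against 117, 35.1 and 89.5 RPKM in TTTA. CRD1, a subunit of the cyclase that closes the ring of chlorophyll, had 868, 302 and 636 RPKM in TATT, against 843, 430.0 and 701 RPKM in TTTA. In the Calvin cycle 17 of 18 were negative with a median of -0.11, and the replicate 2 pair alone had all 18 lower. Starch genes leaned the other way, with 23 of 28 positive and a median of 0.13, but the pair medians were 0.02, -0.17 and 0.41. SEX1, the glucan water dikinase that opens starch to breakdown, had 144, 127 and 141 RPKM in TATT, against 148, 145 and 78.4 RPKM in TTTA, where TTTA replicate 3 is the low value. No gene of these lists passed the test.

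Salicylate and defence genes differed in direction between the replicate pairs. Of 21 genes of salicylate signalling and defence, 18 had negative estimates with a median of -0.32, and 0 passed. The pair medians were -0.99, 0.65 and -0.83: 18 of 19 genes were lower in TATT in the replicate 1 pair, 16 of 21 higher in the replicate 2 pair, and 21 of 21 lower in the replicate 3 pair. PR1, the classical marker of the salicylate response, had 47.6, 4378 and 183 RPKM in TATT, against 472, 3449.8 and 606 RPKM in TTTA. BGL2 (PR2), a beta-glucanase of the same response, had 96.4, 1875 and 192 RPKM in TATT, against 517, 1074 and 493 RPKM in TTTA. In replicates 1 and 3 both are several times lower in TATT, and in replicate 2, in which both crosses hold their highest level, TATT is the higher. The senescence marker sum given above was highest in the same replicate, and its part in these values was not tested.

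Jasmonate genes had 18 positive estimates of 24, with a median of 0.20 and pair medians of -0.09, 0.31 and 0.36. The vegetative storage protein genes VSP1 and VSP2, standard markers of the jasmonate response in leaves, had 148, 47.1 and 248 RPKM in TATT, against 56.4, 23.5 and 59.9 RPKM in TTTA for VSP1 and 48.6, 9.13 and 48.6 RPKM in TATT, against 19.6, 4.11 and 10.1 RPKM in TTTA for VSP2, higher in TATT within every replicate number. Their differences were 1.47 ± 0.67 and 1.52 ± 0.51, neither passing the test. Without replicate 2 of every cross, VSP1 passed in total expression (1.71, limma adjusted p = 0.0377) and VSP2 for the A homoeolog (1.87, limma adjusted p = 0.0416). MYC2, the main transcription factor of jasmonate signalling, had 48.8, 53 and 61.9 RPKM in TATT, against 78.2, 108 and 69.5 RPKM in TTTA, all TATT values below all TTTA values. Of 17 ethylene genes, 9 were higher and 8 lower with a median of 0.13. The factor ERF-1 had 14.2, 56.3 and 20.5 RPKM in TATT, against 24.2, 291 and 44.6 RPKM in TTTA, and EBF2, an F-box protein that removes EIN3, had 6.75, 17.8 and 6.75 RPKM in TATT, against 2.48, 6.8 and 6.92 RPKM in TTTA. Of 7 flavonoid genes tested, 6 had positive estimates, with a median of 0.32. PAL1, the entry enzyme of phenylpropanoid synthesis, had 33, 23.56 and 41.2 RPKM in TATT, against 18.9, 13.7 and 15.2 RPKM in TTTA, and the next enzyme, C4H, had 65.3, 49.4 and 59.6 RPKM in TATT, against 43.7, 26.4 and 44.8 RPKM in TTTA. Neither gene overlapped between the crosses, but the intervals were wide, -0.23 to 2.21 and -0.34 to 1.59.

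Among 11 metal and redox enzymes, 7 were higher and 4 lower, and 0 passed. FER1, which encodes the iron store ferritin, had 336, 22.5 and 234 RPKM in TATT, against 60.4, 20.9 and 53.3 RPKM in TTTA, and its relative FER4 had 53.3, 10.9 and 33.5 RPKM in TATT, against 21.6, 9.01 and 21.9 RPKM in TTTA. Both were higher in TATT within each replicate number, and FER1 by the widest margin in replicates 1 and 3. CSD2, the plastid copper/zinc superoxide dismutase, had 615, 161 and 468 RPKM in TATT, against 700.0, 485 and 733 RPKM in TTTA. It was lower in TATT within each replicate number, though the ranges overlap. CSD1, its cytosolic relative, had 201, 192 and 201 RPKM in TATT, against 270.0, 310.0 and 270.3 RPKM in TTTA, without overlap. Of 26 glucosinolate genes 10 were higher and 16 lower, with a median of -0.08, and the myrosinase TGG1 had 322, 150.4 and 258 RPKM in TATT, against 189.6, 161 and 153 RPKM in TTTA. Cold and drought genes (16 tested, median -0.04), heat shock genes (5, -0.04), dark-induced genes (13, 0.13) and cell wall expansion genes (18, -0.16) had no passing member. The touch-induced gene TCH4 had 64.4, 74.4 and 62.1 RPKM in TATT, against 51.6, 689.7 and 61.9 RPKM in TTTA, with TTTA replicate 2 far above the other 5 libraries.

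**Figure D2:**
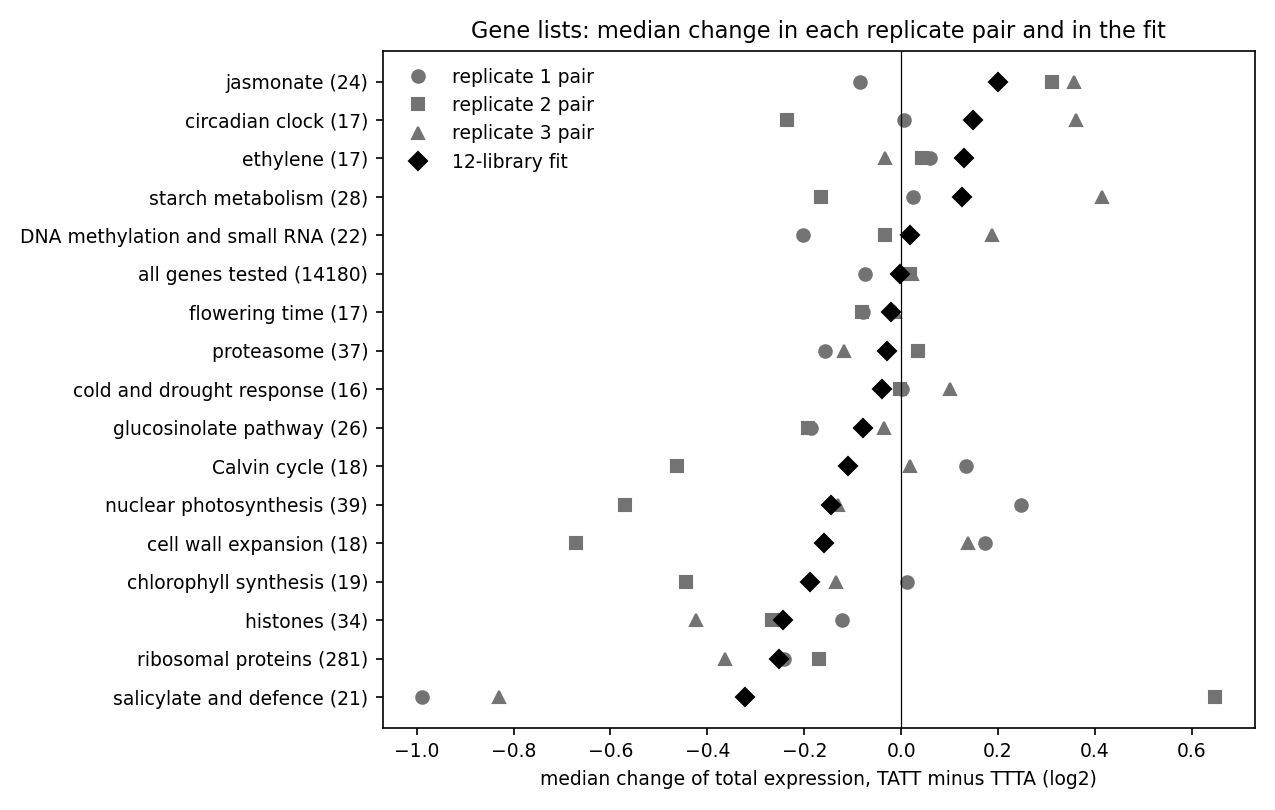
Median difference of total expression (log2, TATT minus TTTA) for each gene list with 15 or more genes tested, with the number of genes in brackets; grey symbols are the replicate pairs and the black diamond the 12-library fit. Ribosomal protein, histone, glucosinolate and flowering-time genes lie below 0 in all 3 pairs, while the salicylate and photosynthesis lists change sign between pairs. In the fit the medians are -0.25 for ribosomal proteins, -0.24 for histones, -0.08 for glucosinolate genes and -0.02 for flowering-time genes.

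Because replicate 2 stood apart, the fits were repeated without it. With replicates 1 and 3 of each cross alone, 49 genes passed in total expression, 5 higher (0.0377% of 13254) and 44 lower in TATT (0.332%). Counts were 9 for the T homoeolog (1 higher, 0.00756%, and 8 lower, 0.0604%), 51 for the A homoeolog (11 higher, 0.099%, and 40 lower, 0.36%) and 0 for the ratio. Leaving out replicate 1 or replicate 3 of every cross gave 0 in total expression. This set of genes rests on 2 libraries of each cross and was looked at after the values of all 3 were known. Of the 44 lower genes, 40 were higher in TATT in the left-out replicate 2 pair. Among those lower in TATT were WRKY70, a switch between salicylate and jasmonate signalling, with 14.8, 238 and 18.6 RPKM in TATT, against 75.2, 380.0 and 54 RPKM in TTTA, and PCC1, a pathogen-induced gene under clock control, with 56.4, 2098 and 87.4 RPKM in TATT, against 572, 1522 and 415 RPKM in TTTA. Without replicate 2 their differences were -1.91 and -2.79 (limma adjusted p = 0.00902 each), and with it -1.50 ± 0.55 and -1.70 ± 0.68 (adjusted p = 0.998 and 0.998). LURP1, induced by oomycete infection, had 15.7, 395 and 24.2 RPKM in TATT, against 125, 385 and 96 RPKM in TTTA, and SARD1, a regulator of salicylate synthesis, had 4.99, 176 and 5.18 RPKM in TATT, against 11.7, 110.4 and 15.3 RPKM in TTTA. The wall-associated kinase WAK1 had 20.3, 328 and 22.7 RPKM in TATT, against 52, 173 and 54.3 RPKM in TTTA. FER1 and VSP1 were among the 5 higher ones, FER1 with a difference of 2.29 without replicate 2 (limma adjusted p = 0.00902). Of the 19 salicylate and defence genes tested without replicate 2, 19 had negative estimates, 4 passed, and the median was -0.87. These genes were named after their values were seen.

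Differences in the balance of the homoeologs were unevenly placed along the genome. Gene codes run in order along each chromosome, and genes were grouped in windows of 2000 codes with at least 20 genes. As a measure of difference, the squared t statistic of the limma fit was averaged over a window, so that larger values stand for larger differences relative to the spread of the libraries. For the T to A ratio, 8 adjoining windows at the start of chromosome 3, AT3G01 to AT3G15, had means of 1.90 to 3.36, and the other 127 windows had 0.423 to 1.29. The A homoeolog had 2.14 to 3.52 in the same 8 windows, against 0.686 to 1.80 elsewhere. The T homoeolog did not stand out there, with 0.697 to 0.947 against 0.308 to 1.71, nor did total expression, with 0.958 to 1.6 against 0.513 to 1.71. The stretch was chosen after the values were seen, so these are descriptions without a test. Windows of 1000 codes gave 1.47 to 4.25 within the stretch and 0.333 to 1.79 outside it.

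The stretch holds 818 of the 11714 genes tested for the ratio, 6.98%. An unadjusted p under 0.01 was found for 61 of them (7.46%), 22 with a higher and 39 with a lower T to A ratio in TATT, and for 34 of 10896 other genes (0.312%; 0.811% over all). For the A homoeolog the same p was found for 45 of 821 genes of the stretch (5.48%) and 53 of 10930 others (0.485%; 0.834% over all), and for the T homoeolog for 0 of 967 genes of the stretch and 44 others (0.311% over all). Of the 10 genes with the smallest p for the ratio 9 lay in the stretch, of the first 20, 16, and of the first 100, 62. The SD of the difference of cross means over genes was 0.36 on the log2 scale in the stretch, against 0.198 elsewhere. Between replicates of the same cross the SD was alike inside and outside, for example 0.377 and 0.355 for TATT replicates 1 and 3, and 0.394 and 0.38 for TTTA replicates 1 and 3. Between TAAA and AATA, the crosses with 1 T genome and 3 A genomes, the SD was 0.294 in the stretch, against 0.35 elsewhere. The median T share over the stretch was 73.0%, 72.5% and 72.3% in TATT, against 74.5%, 72.3% and 74.0% in TTTA. The shares overlap between the crosses.

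**Figure D3:**
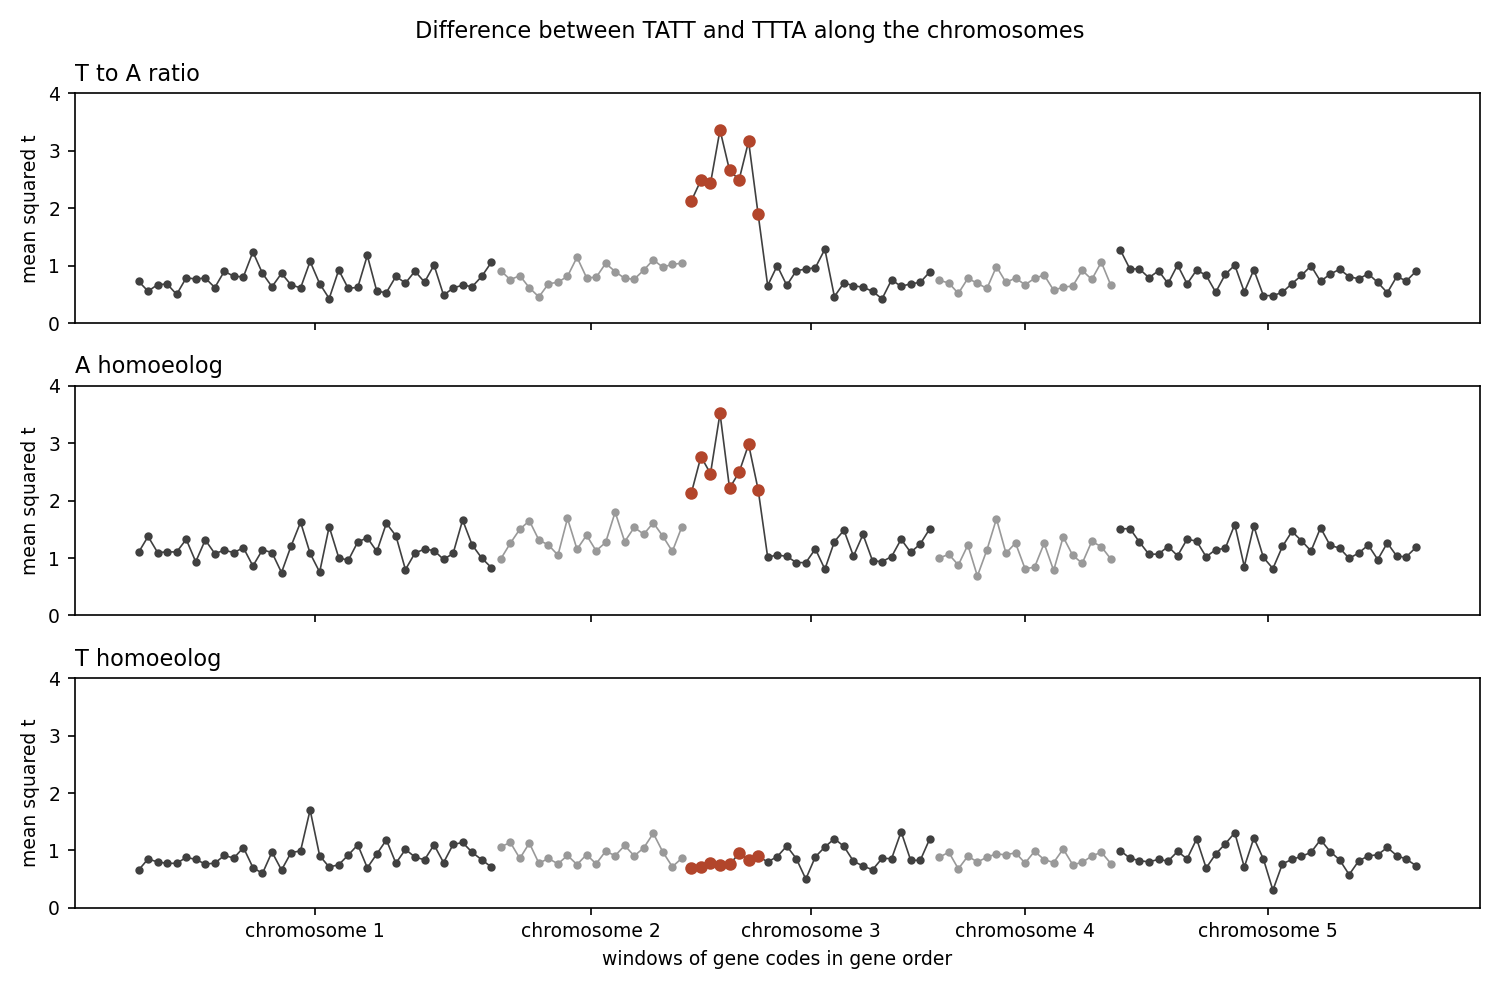
Mean squared t of the TATT minus TTTA difference (no unit) in windows of 2000 gene codes, in gene order along the 5 chromosomes, for the T to A ratio, the A homoeolog and the T homoeolog; the 8 windows of AT3G01 to AT3G15 are red. They reach 1.90 to 3.36 for the ratio and 2.14 to 3.52 for the A homoeolog, and stay at 0.697 to 0.947 for the T homoeolog.

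Single genes of this stretch show where the difference sits. In MAPKKK6 the T homoeolog had 2.57, 3.18 and 2.87 RPKM in TATT, against 3.78, 1.92 and 2.76 RPKM in TTTA, with overlapping ranges, while the A homoeolog had 9.96, 6.36 and 11.9 RPKM in TATT, against 3.15, 0.674 and 4.48 RPKM in TTTA. The T share was 20.5, 33.3 and 19.4% in TATT, against 54.5, 74 and 38.1% in TTTA, a difference in log2 ratio of -1.74 ± 0.25 (95% interval -2.28 to -1.19; limma adjusted p = 0.147). AT3G13340, a WD40-repeat protein, had T at 20.4, 22.7 and 19.4 RPKM in TATT, against 20.6, 22.9 and 20.8 RPKM in TTTA, and A at 14.3, 10.0 and 14.2 RPKM in TATT, against 4.19, 2.85 and 6.89 RPKM in TTTA. The T values overlap and the A values do not, with a log2 difference of 1.43 ± 0.24 for A and -0.04 ± 0.15 for T. SAUR26, a member of the auxin-responsive SAUR family named after its values were seen, had a T share of 22, 21.2 and 19.3% in TATT, against 77.2, 74.7 and 37.3% in TTTA, where TTTA replicate 3 lies between. AT3G08840, a D-alanine ligase family gene, had a T share of 67.2, 62 and 68.2% in TATT, against 81, 77.2 and 86.4% in TTTA, AT3G10060, an FKBP-like isomerase, 68, 67 and 70.1% in TATT, against 84.2, 74.4 and 82% in TTTA, and the ribosomal L33 gene AT3G06320, 71.8, 58.1 and 67% in TATT, against 82.3, 73.6 and 76.6% in TTTA. In all of these the T share was lower in every TATT library than in any TTTA library.

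Other genes of the stretch differed in the opposite direction. AT3G06620, a kinase with a PAS domain, had A at 1.58, 2.02 and 1.85 RPKM in TATT, against 6.44, 4.96 and 2.7 RPKM in TTTA, and T at 5.26, 6.18 and 5.81 RPKM in TATT, against 6.37, 6.43 and 5.64 RPKM in TTTA. AT3G13580, a ribosomal protein of the L30/L7 family, had A at 4.32, 1.79 and 1.4 RPKM in TATT, against 6.32, 7.3 and 8.1 RPKM in TTTA, and its T share was 86.1, 90.6 and 90.6% in TATT, against 74, 78.5 and 75.5% in TTTA, a log2 ratio difference of 1.18 ± 0.20. TRX z, a thioredoxin of the plastid transcription machinery, had A at 4.37, 3.99 and 5.25 RPKM in TATT, against 9.24, 9.57 and 8.43 RPKM in TTTA, all TATT values below all TTTA values, and T at 38.6, 24.5 and 30.0 RPKM in TATT, against 38.5, 33.5 and 39.3 RPKM in TTTA. CYP89A9, a cytochrome P450 of chlorophyll breakdown, had A at 5.37, 6.76 and 7.17 RPKM in TATT, against 14.8, 13.5 and 15.1 RPKM in TTTA. AT3G03890, an FMN-binding protein, had A at 1.21, 1.35 and 0.961 RPKM in TATT, against 2.38, 2.43 and 1.89 RPKM in TTTA, and T at 17.8, 17.8 and 16.1 RPKM in TATT, against 17.7, 18.8 and 14.8 RPKM in TTTA. DIN4, a subunit of branched-chain amino acid breakdown, had a T share of 82.5, 81.3 and 84% in TATT, against 69.9, 73.2 and 78.2% in TTTA. None of these differences passed the limma test with all libraries. Without replicate 2 of every cross, MAPKKK6 (1.42), AT3G13340 (1.32), AT3G10060 (1.2) and CYP89A9 (-1.2) passed for the A homoeolog, and without TTTA replicate 3, MAPKKK6 (-2.05), AT3G13340 (-1.74) and SAUR26 (-3.25) passed for the ratio, with adjusted p of 0.018, 0.0232 and 0.0232.

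**Figure D4:**
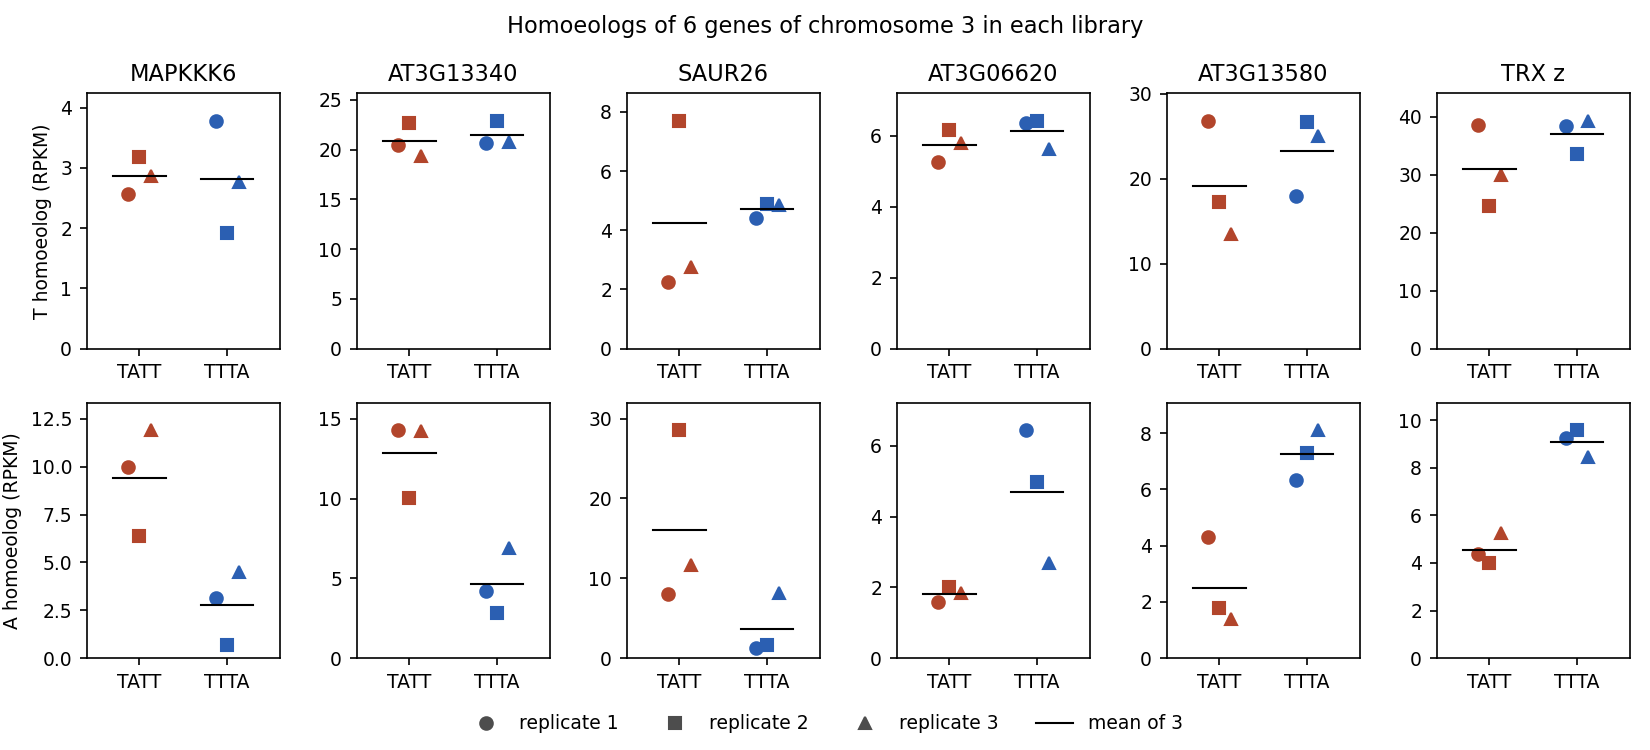
RPKM of the T homoeolog (upper row) and the A homoeolog (lower row) of 6 genes of the chromosome 3 stretch in each TATT library (red, left) and TTTA library (blue, right), with the mean of 3 as a line. The T values of the crosses overlap in all 6 genes; the A values are higher in TATT for MAPKKK6, AT3G13340 and, by its mean, SAUR26, and lower in TATT for AT3G06620, AT3G13580 and TRX z.

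Ratio differences past 2-fold were found for 16 of 10896 genes outside the stretch, against 14 of 818 inside it (0.256% over all). AT3G29633, an uncharacterized gene further along chromosome 3, had a T share of 51.5, 56.5 and 61% in TATT, against 35.5, 24.4 and 29.5% in TTTA, and in this gene the T homoeolog was the higher one in TATT within each replicate number, at 33.9, 122 and 146 RPKM in TATT, against 15.1, 56.6 and 78 RPKM in TTTA. AT4G37900 had a T share of 88.1, 84.9 and 80.5% in TATT, against 69.7, 73.3 and 75.1% in TTTA. FBS4, on chromosome 4, had A at 4.21, 3.16 and 5.06 RPKM in TATT, against 2, 1.13 and 1.98 RPKM in TTTA, and T at 2.44, 3.06 and 2.62 RPKM in TATT, against 2, 2.66 and 2.45 RPKM in TTTA.

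The 6 libraries were also compared one by one along the chromosomes, as the median log2 T to A ratio of a window against the median of the 6 libraries. Outside the segments of chromosomes 2 and 3 described next, in 117 of the 135 windows, every library stayed between -0.107 and 0.117. These windows include a run from AT5G00 to AT5G07, where TATT replicate 3 stood at 0.088 to 0.115 and TATT replicate 1 at 0.013 to 0.081. TATT replicate 2 and the TTTA libraries stood at -0.092 to -0.0004 there. TTTA replicate 3 departed on chromosome 2. Its 2 windows from AT2G22 to AT2G25 stood at 0.26 and 0.28, and its 11 windows from AT2G26 to AT2G47 at -0.24 to -0.09, where the other 5 libraries stayed between -0.06 and 0.08. In T shares, the median of 152 genes of the first segment was 80.6% in this library, against 74.2% to 75.2% in the others, and that of 1109 genes of the second was 68.3%, against 72.2% to 72.9%. On the first part of the chromosome, AT2G01 to AT2G21, the library had 73.0%, within the 72.4% to 73.1% of the others. That pooled median hides 2 windows that departed in opposite directions. The library stood at -0.107 in AT2G00 to AT2G01 (others -0.029 to 0.046) and at 0.094 in AT2G20 to AT2G21 (others -0.049 to 0.0004). TTTA replicate 1 stood at 0.10 to 0.21 in the 5 windows from AT3G00 to AT3G09, and TTTA replicate 3 at 0.01 to 0.08 there, with the other 4 libraries at -0.08 to 0.00. Without TTTA replicate 1 the mean squared t of the chromosome 3 stretch was 2.3 times that of the other genes, without TTTA replicate 3 it was 2.96 times, and with all libraries 3.35 times.

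**Figure D5:**
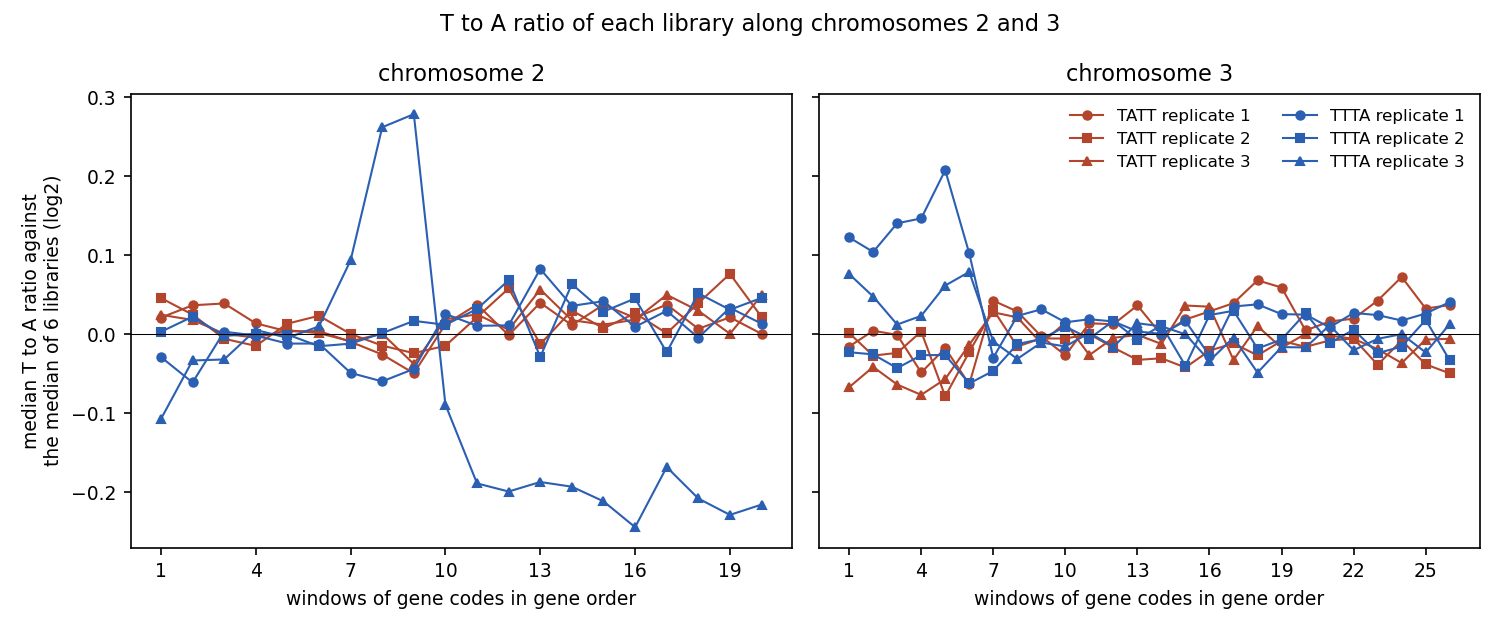
Median log2 T to A ratio of each library against the median of the 6 libraries, in windows of 2000 gene codes in gene order along chromosomes 2 and 3 (TATT red, TTTA blue, symbols for replicates). TTTA replicate 3 goes up to 0.28 and then down to -0.24 on chromosome 2, and TTTA replicate 1 reaches 0.21 at the start of chromosome 3.

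Genes listed in a single cross were few and low. With a value in all 3 libraries of a cross and none of the other, there were 10 in TATT, at no more than 3.31 RPKM, and 5 in TTTA, at no more than 3.75 RPKM, close to the smallest total of 2 RPKM that occurs. In TATT examples were FH8, a formin that nucleates actin, at 2.59, 3.52 and 3.81 RPKM, and ACR6, a protein with ACT domain repeats, at 2.25, 2.53 and 3.36 RPKM. In TTTA examples were AT5G62140, at 4.14, 4.63 and 2.48 RPKM, and AT3G03080, a zinc-binding dehydrogenase, at 4.56, 3.15 and 2.95 RPKM. Of these 15 genes, 1 of the TATT ones (ACR6) and 2 of the TTTA ones (AT3G03080 and AT3G09310) lie in the chromosome 3 stretch, which holds 6.72% of all genes listed. None of the examples has a row in the table of the other cross, so no fold is given.

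Organelle genes, which plants inherit mostly through the mother, gave little to compare. Plastid genes, whose transcripts a poly(A) library takes up poorly, had values for 2, 14 and 20 genes in TATT, against 2, 11 and 14 in TTTA. Their T share over summed RPKM was 0.171%, 10.3% and 10.8% in TATT, against 3.67%, 8.99% and 9.75% in TTTA. It was lowest in replicate 1 of both crosses, where the fewest genes were listed. The median plastid gene had a T share of 77.0% and 81.7% in TATT replicates 2 and 3, against 72.2% and 82.1% in TTTA. The low summed shares therefore do not describe the typical plastid gene listed in replicates 2 and 3. No median is given for replicate 1, with 2 genes listed in each cross. The 2 plastid genes of highest level, ATCG00950 and ATCG01180, were assigned almost wholly to A in both crosses: ATCG01180 had a T share of 0.166, 0.0602 and 0.0291% in TATT, against 0.171, 0.0436 and 0.0444% in TTTA. The rule by which reads were split between T and A is not known here.

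For scale, the crosses with 1 T and 3 A genomes were set beside these. A limma fit of the same form took 13537 genes with values in at least 2 libraries of each of the 4 crosses. In it, 1009 passed in total expression for TAAA minus AATA, with AlloF8 again named first and second. TATT minus TTTA alone was not tested on that set of genes, and in the fit of total expression above 0 of 14180 passed. The difference between the 2 contrasts was itself tested and passed for 2 genes in total expression and 1 for the A homoeolog, with 0 for the T homoeolog and the ratio. At an unadjusted p under 0.05 the counts for this difference were 1887 in total expression, 1578 for A, 1271 for T and 782 for the ratio. For the other genes that pass for TAAA minus AATA, a difference from TATT minus TTTA is not shown.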

How the data were processed

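Poly(A) RNA of rosette leaves was sequenced, per the labels' protocols, and the authors deposited RPKM per transcript for the T and the A homoeolog in each of 3 replicate columns per cross. The genome build was TAIR 9, per the submitters' processing notes. The aligner and the rule that assigned reads to a homoeolog are not named in any source available here. Read depth is unknown, since the deposited RPKM showed no whole-read steps, so precision rests on the 3 libraries per cross alone.

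Each gene was taken as its transcript of highest mean total. Pairs at 0 for both homoeologs were set to missing. Gene names were read from the TAIR10.1 annotation (99.1% of 17415 gene codes found), and since that is another build than TAIR 9, positions are given as gene codes only. Genes with values in at least 2 libraries of each cross and a mean of at least 1 RPKM were tested as log2(RPKM + 0.5), so fold changes of low genes are understated, for total, T homoeolog, A homoeolog and T to A ratio. The fit used limma 3.58.1 in R 4.3.3 (eBayes with trend, two-sided, Benjamini-Hochberg, threshold 0.05) on the 12 libraries of the 4 F1 crosses, with a mean per cross and replicate number as a block. The replicate numbers in the deposited column headers were taken to pair the samples because every same-numbered correlation of deviations was above 0.1 (0.64, 0.69 and 0.392). TATT replicate 3 also correlated at 0.476 with TTTA replicate 1, and TATT replicate 1 at 0.243 with TTTA replicate 3. The pairing of replicate 3 is therefore not singled out by the data, and the threshold of 0.1 does not single out that of replicate 1. Tables and plots were made with Python 3.11 tools.

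The genes named are those of smallest p in each direction among genes with 6 values and the same direction in all 3 pairs, the 2 most abundant members of each list, further members of lists chosen after their values were seen, and CCA1, TOC1, FLC and NRPD1. Members and lists were chosen with earlier results of these data known. A. suecica and AlloF8 entered no comparison. Settings tried are given at the end.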

Additional observations from a re-analysis of the deposited data

Results flagged for a closer look

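A set of 3 values differed between the dosage classes by a test of the difference itself, TATT minus TTTA against TAAA minus AATA, in the 12-library limma fit. AT4G36220, ferulic acid 5-hydroxylase 1 of lignin and sinapate synthesis, differed by -1.92 on the log2 scale in total expression (adjusted p = 0.0281) and by -2.04 for the A homoeolog (adjusted p = 0.0348). Its total was 53, 71.3 and 57.9 RPKM in TATT, against 62.3, 75.2 and 68 RPKM in TTTA, and 302, 373 and 290.3 RPKM in TAAA, against 85.5, 130.0 and 77.6 RPKM in AATA. AAP4, an amino acid permease, differed by -1.79 in total expression (adjusted p = 0.0475). It had 27.7, 26.3 and 29.8 RPKM in TATT, against 25.3, 26.2 and 32.2 RPKM in TTTA, and 52.9, 42.3 and 55.2 RPKM in TAAA, against 16.3, 10.6 and 15.6 RPKM in AATA. In AAP4, and in the total and A values of AT4G36220, TATT and TTTA overlap, and TAAA stands above AATA in all 3 libraries. Groups of 3 libraries are too small to search for single outlying libraries by the usual rule.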

How the results depend on the processing

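The counts of passing genes stayed at 0 under most settings. Without the replicate block, 0 genes passed in any readout, with 228 genes at an unadjusted p under 0.05 in total expression, 147 for T, 262 for A and 238 for the ratio. The 6 libraries alone gave 0 with and without the block as well. Pseudocounts of 1 and 0.1, a minimum of 5 RPKM or none, rescaling to 1 median, genes with 6 values and summed transcripts also gave 0 in all 4 readouts. With 0/0 pairs and transcripts absent from a table set to 0, 2 genes passed in total expression (AT3G03080 lower, ACR6 higher) and 2 for the A homoeolog (AT3G03080 lower, CYP72A14 higher). Leaving out replicates gave 0 to 49 genes in total expression, 0 to 9 for T, 0 to 51 for A and 0 to 3 for the ratio. The high ends came without replicate 2 of every cross, except for the ratio, where they came without TTTA replicate 3. Without TATT replicate 1, AT4G07666 passed for T, and without TATT replicate 2, AT1G13470 did, each lower in TATT. The ribosomal protein median ran from -0.30 to -0.19 when replicates were left out and was -0.25 under the others. The chromosome 3 stretch had a mean squared t 2.3 to 3.23 times that of other genes without 1 replicate and 3.03 to 4.37 times under the other settings. The library-wide T share difference was -0.225 points over genes with 6 values, -0.186 without organelle genes and 0.0221 without the 100 genes of highest mean. Genes listed in a single cross numbered 94 in TATT and 40 in TTTA when 2 libraries were enough. Of 6612 values under alternatives of genes tested with all libraries, 393 changed sign, none of them a passing value, and 23 passed, all with replicates left out. With 3 libraries per cross, 87.2% of total intervals lay within 2-fold, and totals under 2 RPKM cannot be seen. The settings for ribosomal proteins and the chromosome 3 stretch, and the test of both dosage classes, were chosen after seeing the data.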
